A study of Mus musculus with 8 samples.

Results

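Fatty acid oxidation and ketogenesis genes were examined in 8 colon tumor samples of mice, as 34 genes chosen by symbol from the enzymes of mitochondrial and peroxisomal β-oxidation, the carnitine shuttle, ketone body metabolism and known targets of the fatty acid receptors of the PPAR family. Of these, 33 had at least 1 of 56 probes on the array, which carried 25697 probes for 18138 gene symbols. Hadha, the alpha subunit of the mitochondrial trifunctional protein, was not analysed here. A probe counted as detected on an array below a detection p of 0.01, and genes with a probe detected on 4 or more of the 8 arrays were tested, which held for 30 of the 33 genes and 43 probes. Each tested gene was detected on at least 2 arrays of each group, and 26 were detected on all 8. Every value below is a log2 intensity at the gene's brightest tested probe unless another probe is named.

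The samples were total RNA of colon tumors from mice of 8 months on a mixed C57BL/6J and FVBN background, hybridised to 1-colour Illumina BeadChips. All mice carried the Apc min allele (APCmin/+), a truncating mutation of a Wnt pathway inhibitor that gives rise to intestinal tumors. The 4 control tumors (VP16, replicates 1 to 4) had a transgene for the activation domain VP16 by itself, which comes from a viral transcription factor. The 4 tumors of the other group (VP16LXRa, replicates 5 to 8) had a transgene that joins VP16 to LXRα, a nuclear receptor for oxidised cholesterol, so that the receptor is active without its ligand. The labels name neither the promoter of the transgene nor whether the tumors came from separate mice, and the p-values thus reflect only how far these samples spread, which may be technical. The design compares the 4 VP16LXRa with the 4 VP16 tumors.

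Fatty acids enter mitochondria as carnitine esters and are then shortened in repeated rounds of oxidation, hydration, a further oxidation and thiolytic cleavage, which yield acetyl-CoA and pass electrons to the respiratory chain. Colonocytes, the absorptive cells of the colon, draw much of their energy from oxidising butyrate, a short-chain fatty acid made by gut bacteria, and can turn acetyl-CoA into ketone bodies. Many of these enzymes are transcribed under the control of PPAR receptors, which bind, with the retinoid X receptor, a direct repeat of a hexamer spaced by a single base.

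The RefSeq promoters (build GRCm38.p6, 250 bases before to 50 bases after the transcription start) held an entry for 28 of the 34 genes, in 29 promoters. They were searched on both strands for the PPAR type of repeat, AGGTCANAGGTCA, allowing 2 mismatches. It was found in 4 of the 29, those of Slc25a20, Etfa, Echs1 and Adfp, and in 3.86% of all 32851 promoters. The LXR type of repeat, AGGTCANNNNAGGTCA, with the same allowance, was found in 1 of the 29, that of Acadvl, and in 3.02% of all. The GC box GGGCGG was found in 23 of the 29 and in 35.7% of all. These are matches of letters and no measured sites. The promoters of Slc25a20, Etfa and Echs1 are shown as examples with the PPAR type of repeat, which is in capitals. That of Pdk4, which has neither a repeat nor a GC box in this window, is shown because Pdk4 had the largest difference between the groups. All are written 5′ to 3′ on the strand of the gene.
Slc25a20, chr9:108661886-108662185, plus strand: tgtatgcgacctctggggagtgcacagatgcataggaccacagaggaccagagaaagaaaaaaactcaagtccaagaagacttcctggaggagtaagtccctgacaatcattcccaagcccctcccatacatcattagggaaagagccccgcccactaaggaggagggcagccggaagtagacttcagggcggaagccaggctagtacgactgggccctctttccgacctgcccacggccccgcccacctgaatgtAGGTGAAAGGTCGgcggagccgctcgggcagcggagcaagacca
Etfa, chr9:55512194-55512493, minus strand: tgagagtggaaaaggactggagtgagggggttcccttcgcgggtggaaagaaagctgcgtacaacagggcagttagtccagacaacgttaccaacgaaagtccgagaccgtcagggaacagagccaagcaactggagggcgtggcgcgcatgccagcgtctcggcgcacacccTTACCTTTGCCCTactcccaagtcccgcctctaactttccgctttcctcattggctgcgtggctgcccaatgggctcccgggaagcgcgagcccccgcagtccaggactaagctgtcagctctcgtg
Echs1, chr7:140116372-140116671, minus strand: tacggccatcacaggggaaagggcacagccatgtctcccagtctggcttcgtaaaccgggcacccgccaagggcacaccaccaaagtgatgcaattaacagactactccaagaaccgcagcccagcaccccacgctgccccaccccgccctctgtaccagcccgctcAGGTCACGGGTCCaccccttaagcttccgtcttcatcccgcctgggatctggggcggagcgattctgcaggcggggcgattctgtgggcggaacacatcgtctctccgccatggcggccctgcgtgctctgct
Pdk4, chr6:5496229-5496528, minus strand: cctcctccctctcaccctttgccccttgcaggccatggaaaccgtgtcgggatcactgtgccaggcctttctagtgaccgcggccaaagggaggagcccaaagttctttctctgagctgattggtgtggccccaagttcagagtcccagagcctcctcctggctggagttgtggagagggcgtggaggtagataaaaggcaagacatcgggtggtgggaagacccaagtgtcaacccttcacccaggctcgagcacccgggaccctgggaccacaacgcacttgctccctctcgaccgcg

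Over the tested probes 2 arrays, VP16 replicate 1 and VP16LXRa replicate 5, stood apart from the other 6, and this touches nearly every result below. Pearson r between these 2 was 0.95. With the other 6 it was 0.89 to 0.92 for VP16 replicate 1 and 0.83 to 0.86 for VP16LXRa replicate 5. Among the other 6 it was 0.94 to 0.97. Neither the number of probes detected per array (11469 to 12257) nor the raw median signal (126 to 146) set the pair apart. The 12 tested colonocyte markers of 18 listed all had their 2 lowest values on these arrays. Summed on the linear scale, the markers of VP16 replicate 1 reached 27315 and those of VP16LXRa replicate 5 reached 7569, where the other 6 tumors had 78456 to 97716. Of the colonocyte markers on the array Fabp2 alone was detected on no array. Of 14 Wnt target genes listed, all on the array, 7 were tested, and Znrf3 and Lef1 were detected on no array. The 7 summed to 4953 in VP16 replicate 1, to 6230 in VP16LXRa replicate 5 and to 733 to 1252 on the others. For 6 of the 7 the 2 highest values lay on these 2 arrays, the exception being Tcf7. Wif1 and Sp5 were each detected in 1 VP16 tumor, and in 4 and 3 VP16LXRa tumors. In VP16 replicates 2 to 4 they stood at 4.45 to 4.94. How much tumor and how much other colon tissue each sample held was not tested. For 4 of the 12 tested macrophage markers the 2 highest values lay on these arrays, and the summed markers reached 6095 and 14054 there and 2874 to 8205 elsewhere. Of 11 small intestine markers listed 8 were on the array and 3 were tested. Slc5a1 was detected on all 8 arrays (7.66 to 9.12), and Fabp6 and Anpep each in 3 VP16 and 4 VP16LXRa tumors. Apoa4, Apoa1, Fabp1 and Slc2a2 were detected on no array. The 8 tested smooth muscle markers of 9 listed also varied widely, with a median deviation from their means of -0.97 and -2.15 on these arrays, of -1.88 in VP16 replicate 4 and of 0.42 to 1.39 in the other 5 tumors. Their sum was 9385 to 80204 in VP16 and 12654 to 61111 in VP16LXRa tumors, and Synpo2 was detected on no array.

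Between the groups the fatty acid oxidation genes showed no common shift. Of the 30 tested genes 14 had a higher and 16 a lower mean in VP16LXRa tumors, a share of 46.7% higher against 52.3% of all 9110 tested genes. Their median log2 difference (VP16LXRa minus VP16) was -0.0023, beside 0.011 over all tested genes. Leaving aside Pdk4, single differences ran from -0.34 to 0.48, and the 95% interval of 29 of the 30 included 0. The standard errors ran from 0.15 to 0.83. An unadjusted p under 0.05 was reached by 1 of the 30 genes, Pdk4, against 1.66% of all tested genes in either direction and 0.878% with VP16LXRa higher, as Pdk4 was. None passed limma's test after Benjamini-Hochberg adjustment over all 11875 probes (smallest adjusted p = 0.9999), where 0.00842% of the probes passed. The values of both groups overlapped for each of the 30 genes, and did not overlap for 1.27% of all tested genes.

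**Figure D1:**
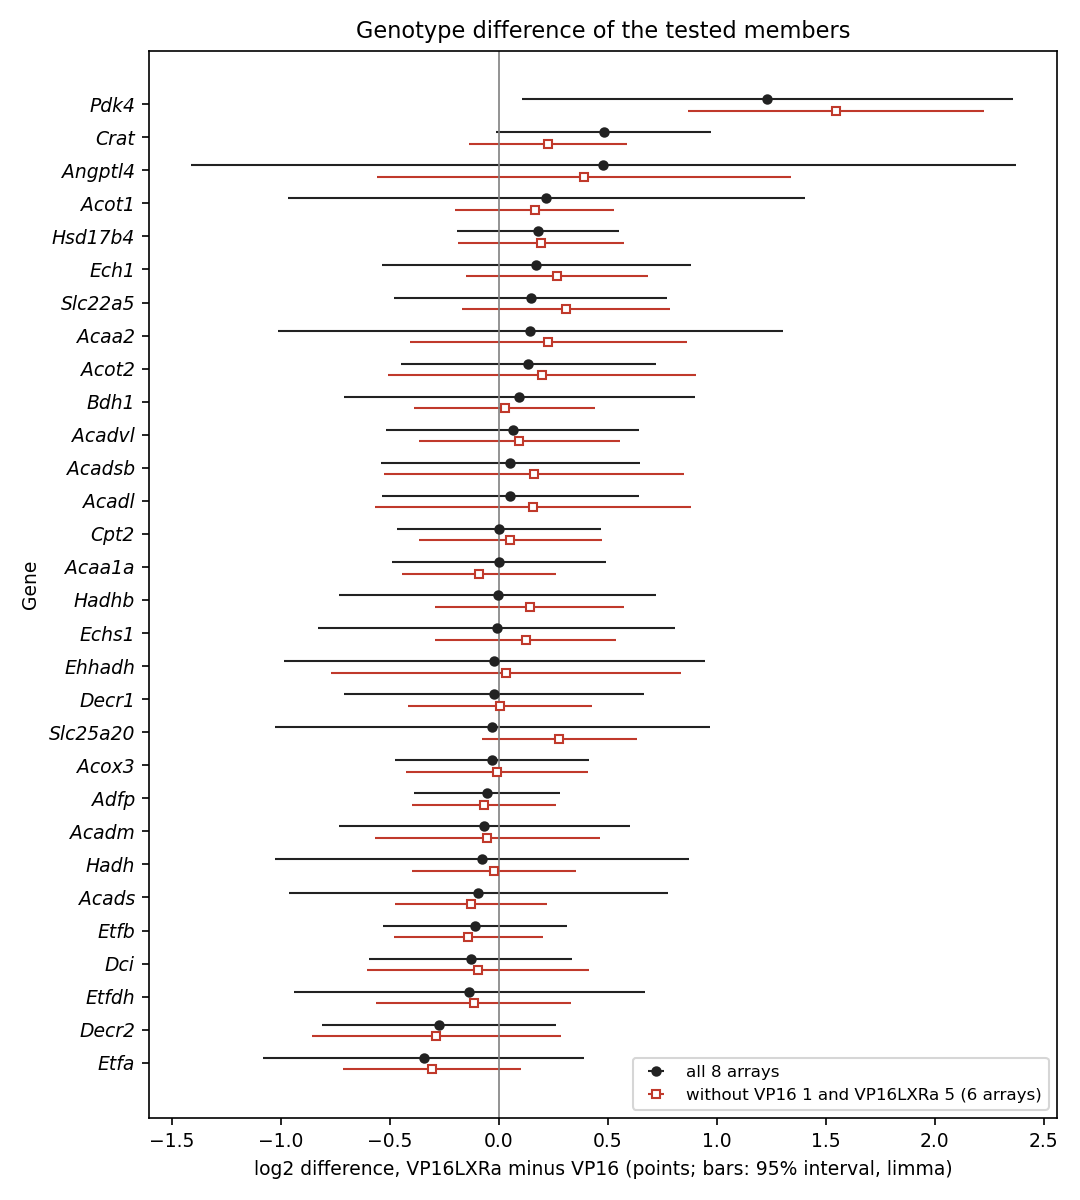
Log2 difference between VP16LXRa and VP16 tumors (horizontal axis) for each of the 30 tested genes (vertical axis), from all 8 arrays (filled circles) and without VP16 replicate 1 and VP16LXRa replicate 5 (open squares), with 95% intervals from limma. Pdk4, at 1.23, is the gene whose interval excludes 0; the others lie between -0.34 and 0.48.

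The larger pattern ran across the groups. Of the 30 tested genes 21 (70%) had their 2 lowest values in VP16 replicate 1 and VP16LXRa replicate 5, as 19.5% of all tested genes did. In 17 of these 21 the value of VP16LXRa replicate 5 was the lower one. The higher of both values lay below the lowest of the other 6 tumors by 0.13 (Adfp) to 1.08 (Acads), and for 8 of the 21 this gap was wider than the whole range of the other 6. Under their own symbols the 21 genes had 31 tested probes, of which 30 showed the same order, the exception being a dim probe of Slc22a5. A dim probe under Hadhsc, an older symbol of Hadh, was counted apart and did not show this order. It stood at 5.39 in VP16 replicate 1, at 4.64 in VP16LXRa replicate 5 and at 5.12 to 6.14 elsewhere. Only 2 of the 30 genes, Acot1 and Angptl4, had their 2 highest values there, against 21.9% of all tested genes. The remaining 7 were Crat, Acadl, Acadsb, Dci, Decr2, Hsd17b4 and Acot2. In a bulk sample fewer cells of a type and less RNA per cell cannot be told apart. The colonocyte and smooth muscle markers were low on these arrays too, the latter also in VP16 replicate 4, and the Wnt target genes were high, and their part in the pattern was not tested. The widths show its size: over all 8 tumors the median range of the 30 genes was 1.25 log2 units, and over the other 6 it was 0.55.

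**Figure D2:**
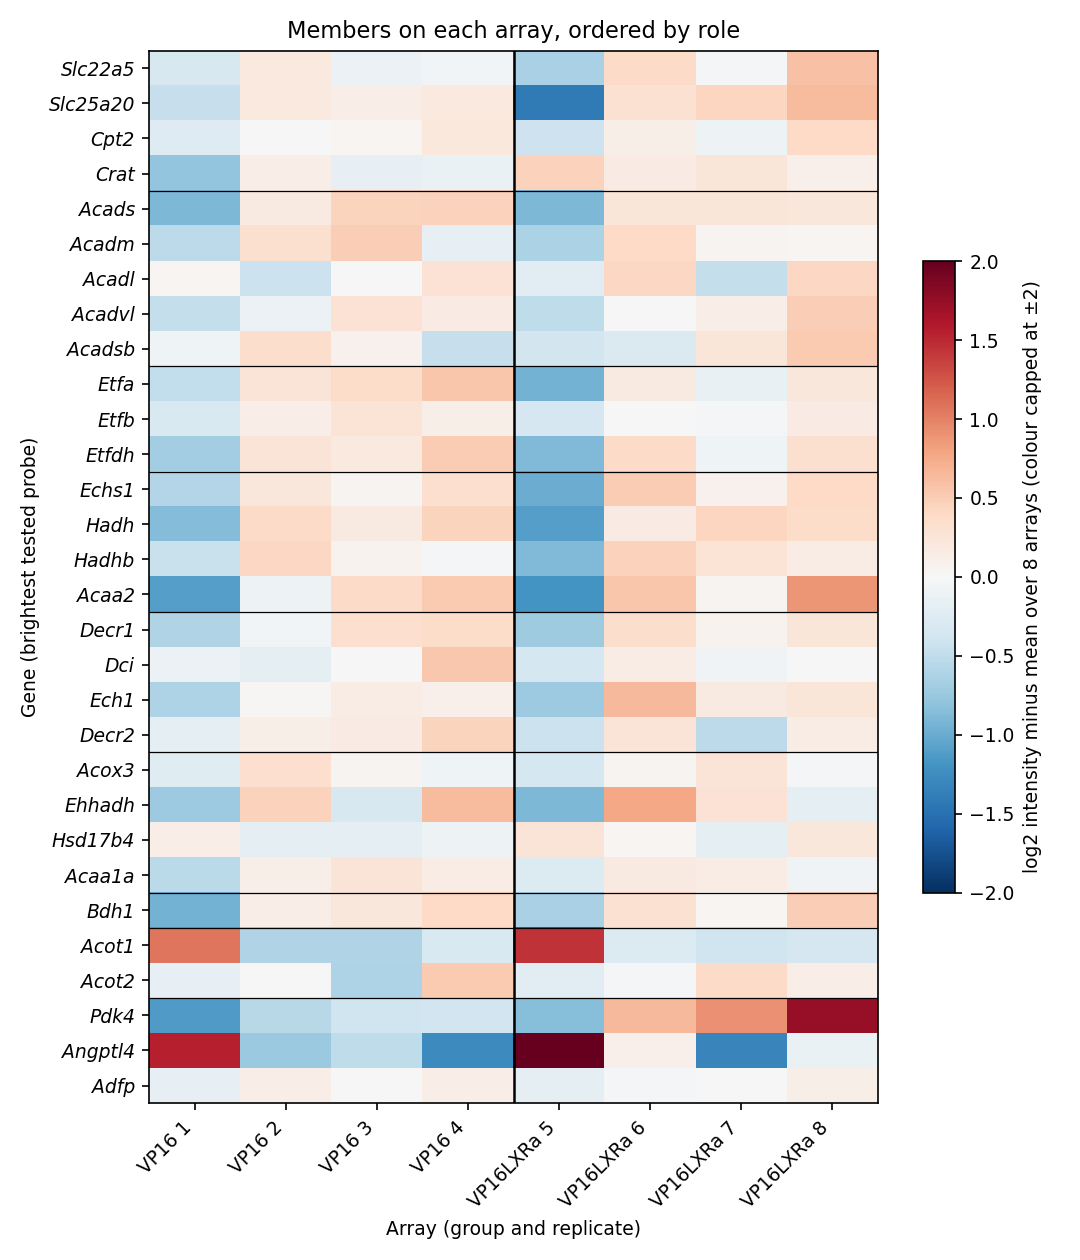
Log2 intensity of each tested gene (rows, in order of their role in the pathway) on each of the 8 arrays (columns), as the deviation from the gene's mean over the 8 arrays; the vertical line parts the groups and thin lines part the roles. Under VP16 1 and VP16LXRa 5 the 21 genes with their lowest values there are blue. Decr2, Acot2, Acadsb and Dci lie below their means in both columns too, without both values being lowest. Acot1, Angptl4 and, less strongly, Hsd17b4 are red in the same columns.

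In the carnitine shuttle, which carries fatty acids into mitochondria, 4 of 6 genes were tested. Slc25a20, the carrier that exchanges acylcarnitine for carnitine across the inner membrane, stood at 11.04, 11.71, 11.65 and 11.71 in VP16 tumors and at 10.09, 11.82, 11.94 and 12.14 in VP16LXRa tumors. VP16LXRa replicate 5 was lowest and VP16 replicate 1 next, while the other 3 VP16LXRa tumors lay just above all VP16 tumors, so that the difference was -0.03 (SE 0.44) over 8 arrays and 0.28 (SE 0.15) without the 2 arrays. A dimmer probe of Slc25a20 stood at 7.31 and 6.48 on these arrays and at 8.37 to 9.02 on the others. Slc22a5, the plasma membrane carnitine transporter, ranged from 8.37 in VP16LXRa replicate 5 to 9.61 (difference 0.15, SE 0.27), and Cpt2, which returns acyl groups to CoA inside mitochondria, stood at 9.79 in VP16 replicate 1, at 9.64 in VP16LXRa replicate 5 and at 9.95 to 10.44 in the others (difference 0.001, SE 0.20).

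Crat, the carnitine acetyltransferase that buffers acetyl-CoA, was the shuttle gene that behaved differently. It stood at 7.12, 8.05, 7.75 and 7.77 in VP16 tumors and at 8.37, 8.08, 8.15 and 8.02 in VP16LXRa tumors. VP16 replicate 1 was its lowest and VP16LXRa replicate 5 its highest tumor, and the groups overlapped only through VP16 replicate 2. The difference was 0.48 (SE 0.22, 95% interval -0.01 to 0.97, unadjusted limma p = 0.054) and the exact two-sided permutation p over the 70 splits of the arrays was 0.0571. Without the 2 arrays it was 0.22 (SE 0.15). Cpt1a, the outer membrane enzyme at which entry into mitochondria is regulated, was detected on no array, with values from 4.55 to 5.03 where undetected probes averaged 4.60 to 4.64. Crot, the peroxisomal carnitine octanoyltransferase, was also detected on no array.

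All 5 acyl-CoA dehydrogenases, which take the initial oxidation step and differ in the chain length of their substrate, were tested. Acads, which acts on short chains such as butyryl-CoA and is given in full after its values were seen, stood at 9.77, 10.86, 11.12 and 11.13 in VP16 tumors and at 9.77, 10.91, 10.91 and 10.90 in VP16LXRa tumors. The arrays of VP16 replicate 1 and VP16LXRa replicate 5 lay more than 1 log2 unit below the others, which spanned 0.27. Acadm, for medium chains, stood at 11.50, 12.35, 12.53 and 11.87 against 11.40, 12.43, 12.09 and 12.07, and Acadvl, for very long chains, ranged from 9.58 to 10.57 with the same 2 arrays lowest. These 2 arrays were not both at one end for Acadl, the long-chain enzyme (7.61 to 8.50, and 2 dimmer probes with ranges of 0.43 and 0.75), or for Acadsb, which acts on short branched chains (7.64 to 8.62). The group differences of the 5 lay between -0.09 and 0.06.

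The electron transfer flavoprotein, which takes electrons from the dehydrogenases, consists of the products of Etfa and Etfb, and Etfdh encodes the oxidoreductase that passes them to ubiquinone. Etfa stood at 11.77, 12.52, 12.62 and 12.81 in VP16 and at 11.31, 12.45, 12.11 and 12.49 in VP16LXRa tumors. It had the most negative difference of the 30 genes, -0.34 (SE 0.32, 95% interval -1.08 to 0.39), and its other 2 probes gave -0.26 and -0.09. Etfdh stood at 8.23 and 8.03 on the 2 arrays and at 8.83 to 9.44 on the others, and Etfb at 11.80 and 11.78 against 12.07 to 12.39. The group differences of Etfb (-0.11, SE 0.18) and Etfdh (-0.13, SE 0.35) were within their errors, and a dimmer Etfb probe went the other way (0.12, SE 0.22).

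For the steps that follow in mitochondria, 4 of the 6 genes were tested, and in all 4 the same arrays were lowest. Echs1, the short-chain enoyl-CoA hydratase, stood at 10.32, 11.13, 10.96 and 11.25 in VP16 and at 9.91, 11.41, 10.996 and 11.31 in VP16LXRa tumors. Hadh, the hydroxyacyl-CoA dehydrogenase of shorter chains, had 5.99 and 5.75 on these arrays and 7.02 to 7.31 on the others. Hadhb, the thiolase subunit of the trifunctional protein, had 10.46 and 10.01 against 10.85 to 11.36. The gap between the arrays that stood apart and the other 6 tumors was wider than the range of those 6 for Echs1 (0.64 against 0.45) and Hadh (1.02 against 0.29). For Hadhb it was narrower (0.40 against 0.50).

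Acaa2, the mitochondrial thiolase that releases acetyl-CoA, varied most within this step. It stood at 7.84, 8.84, 9.32 and 9.45 in VP16 and at 7.74, 9.50, 8.99 and 9.81 in VP16LXRa tumors, a difference of 0.15 (SE 0.51). Its 3 other probes gave differences of 0.20, 0.37 and -0.17, and all of them had the same 2 arrays lowest. Without those arrays the 4 probes gave 0.23, 0.31, 0.56 and -0.21, so that they disagreed in sign. The probe at 0.56, the third brightest on average, had its groups free of overlap there and an unadjusted limma p of 0.0298 (adjusted p = 0.9998), while the exact permutation test cannot go below 0.1 with 3 against 3. Acat1, the acetoacetyl-CoA thiolase, was detected on no array.

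Among the auxiliary enzymes that prepare unsaturated chains, Ech1, a dienoyl-CoA isomerase, stood at 11.41, 12.04, 12.18 and 12.12 in VP16 and at 11.30, 12.67, 12.20 and 12.27 in VP16LXRa tumors. Decr1, the mitochondrial dienoyl-CoA reductase, stood at 6.51 and 6.40 on the 2 arrays and at 7.06 to 7.47 on the others. Dci, an enoyl-CoA isomerase now named Eci1, ranged from 9.42 to 10.31 and did not follow this order. Decr2, the peroxisomal reductase, stood at 5.83, 6.15, 6.19 and 6.47 against 5.59, 6.28, 5.50 and 6.17, with VP16LXRa replicate 7 lowest (difference -0.27, SE 0.24). In this role the arrays that stood apart were thus lowest for Ech1 and Decr1 and not for the other 2 genes.

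Peroxisomes shorten very long and branched chains through an oxidase, a bifunctional enzyme and a thiolase. Acaa1a, the peroxisomal thiolase, stood at 11.37, 12.02, 12.17 and 12.06 in VP16 and at 11.64, 12.09, 12.06 and 11.83 in VP16LXRa tumors, and the 95% interval of its group difference was -0.49 to 0.49. Because Acaa1a has a near-identical copy in mouse, Acaa1b, the probe may read both. Ehhadh, the bifunctional enzyme of straight chains, stood at 4.85, 6.03, 5.25 and 6.21 against 4.67, 6.35, 5.86 and 5.38, and was detected in only 2 of 4 tumors of each group. Acox3, an oxidase of branched chains, stood at 7.88 in VP16 replicate 1, at 7.77 in VP16LXRa replicate 5 and at 8.03 to 8.47 in the others. Hsd17b4, the bifunctional enzyme of branched and very long chains, was the peroxisomal gene that was not low on the 2 arrays, with 10.64 and 10.77 there and 10.31 to 10.74 elsewhere (difference 0.18, SE 0.16).

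Bdh1, which interconverts the ketone bodies acetoacetate and hydroxybutyrate, stood at 9.22, 10.29, 10.40 and 10.56 in VP16 and at 9.51, 10.48, 10.20 and 10.65 in VP16LXRa tumors (difference 0.09, SE 0.35). Both arrays that stood apart lay at least 0.69 below the others. Of 10 further ketone body genes, all on the array, 6 were tested, 1 with a higher and 5 with a lower mean in VP16LXRa tumors and none with an unadjusted p under 0.05. The 3 with the smallest p were Slc16a6, a monocarboxylate transporter family member (0.35, SE 0.26), Aacs, the acetoacetyl-CoA synthetase (-0.13, SE 0.17), and Oxct1, which activates acetoacetate for use as fuel (-0.27, SE 0.36). Over the other 6 tumors alone 2 of the 6 means were higher and 4 lower, and the difference of Oxct1 was -0.07 (SE 0.20).

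**Figure D3:**
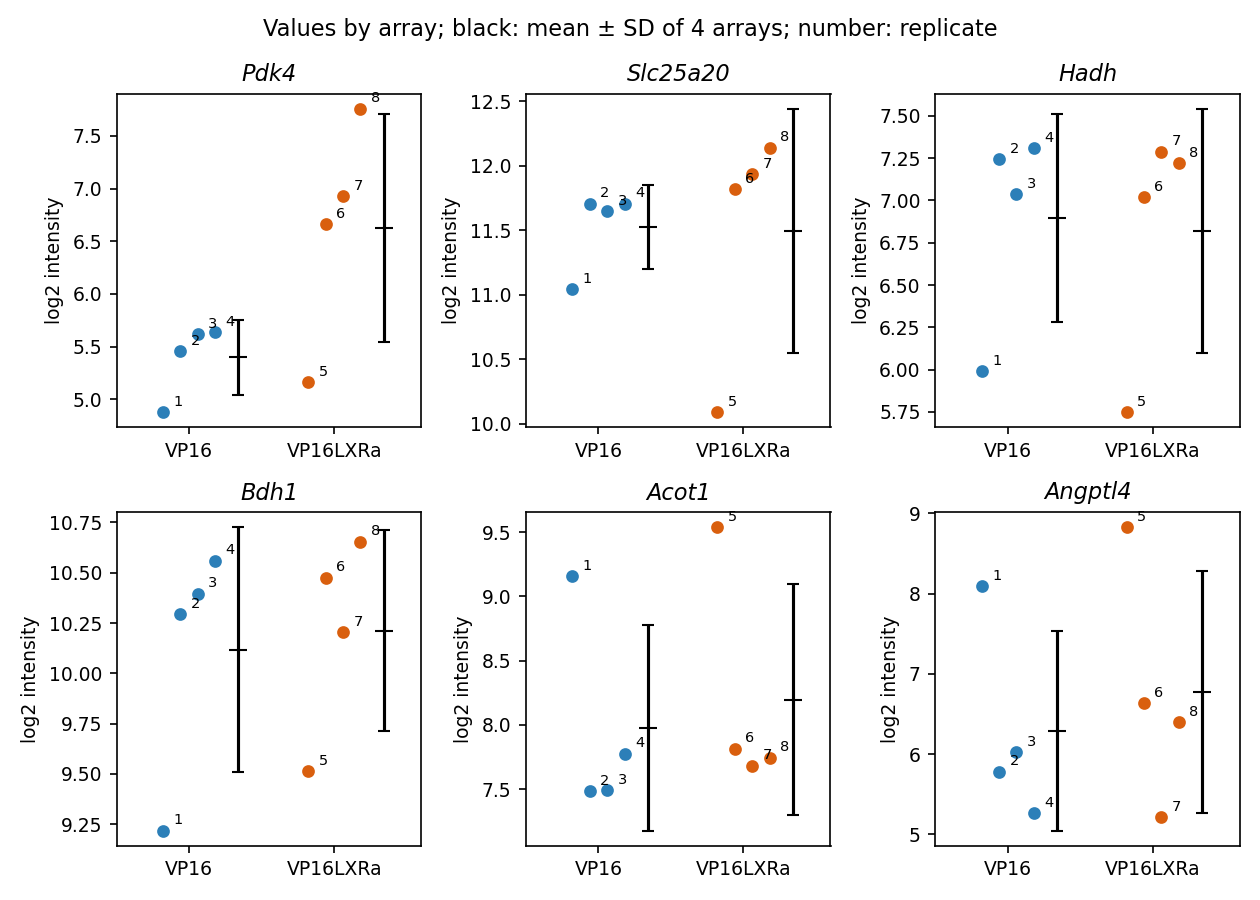
Log2 intensity (vertical axes) of 6 genes in each VP16 (blue) and VP16LXRa (orange) tumor, numbered by replicate, with the mean ± SD of each group of 4 in black. Slc25a20, Hadh and Bdh1 are lowest and Acot1 and Angptl4 highest in replicates 1 and 5, while Pdk4 is high in replicates 6 to 8.

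Acyl-CoA thioesterases release free fatty acids from CoA. Acot1, the cytosolic enzyme, went against the oxidation genes, with 9.16, 7.48, 7.49 and 7.78 in VP16 and 9.54, 7.82, 7.68 and 7.75 in VP16LXRa tumors. The 2 arrays stood at least 1.34 above the other 6, which spanned 0.33, and the group difference was 0.22 (SE 0.52). A dimmer Acot1 probe, detected on 3 arrays and not tested, showed the same order, with 6.09 and 6.44 there and 4.55 to 5.50 elsewhere. Acot2, its mitochondrial paralog, ranged from 4.97 to 6.11 with 5.42 and 5.36 on these arrays, within the others. The paralogs are close in sequence, so that cross-hybridisation is possible.

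Pdk4 encodes the kinase that restrains pyruvate dehydrogenase when fatty acids are burned, and is a target of PPAR receptors. It stood at 4.88, 5.46, 5.62 and 5.64 in VP16 tumors and at 5.16, 6.67, 6.93 and 7.76 in VP16LXRa tumors. VP16LXRa replicates 6, 7 and 8 lay above every VP16 tumor and VP16LXRa replicate 5 below all but VP16 replicate 1, and on these 2 low arrays the probe was not detected. The mean was 5.40 ± 0.35 (SD, n = 4) for VP16 and 6.63 ± 1.08 (SD, n = 4) for VP16LXRa, a log2 difference of 1.23 (SE 0.49, 95% interval 0.10 to 2.36). The probe was dim, and the size depended on how background was handled: it was 0.50 on uncorrected signals and 0.86 when 50 served as the offset. The unadjusted limma p was 0.0356 and the adjusted p 0.9999, and the exact two-sided permutation p was 0.114, where 0.0286 is the smallest possible. Leaving out any 1 array other than VP16LXRa replicate 5 brought the unadjusted p to between 0.0508 and 0.0893, with differences of 0.86 to 1.31. The difference was 1.25, 1.30 and 1.31 without VP16 replicate 2, 3 or 4, and smallest without VP16LXRa replicate 8.

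Without VP16 replicate 1 and VP16LXRa replicate 5 the 3 VP16LXRa tumors lay above the 3 VP16 tumors for Pdk4, with a log2 difference of 1.55 (SE 0.29), an unadjusted limma p of 0.00108 (adjusted p = 0.883) and an exact permutation p of 0.1, the smallest that 3 against 3 allows. Over these 6 arrays 1 of the 30 genes, Pdk4, had an unadjusted p under 0.05, against 3.21% of all tested genes. The groups were free of overlap for 4 of the 30 genes, against 8.02% of all tested genes: Pdk4, Slc25a20 and Ech1 with VP16LXRa higher (4.51% of all tested genes), and Etfa with VP16LXRa lower. Slc25a20, Ech1 and Etfa had differences of 0.28, 0.27 and -0.31, none past an unadjusted p of 0.05. The other 2 tested probes of Etfa overlapped between the groups, with differences of -0.16 and 0.03. A dimmer tested probe of Slc25a20 was free of overlap too (0.28). Of the 30 genes 19 (63.3%) had a higher mean in VP16LXRa on these arrays, against 53.0% of all tested genes. Their median difference was 0.07 beside 0.015 over all tested genes.

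Over the 8 arrays the tested genes outside the pathway and marker lists whose values were most like those of Pdk4 were Lpgat1 (Pearson r = 0.99), Slc39a1 (0.97), Rad9 (0.95), Narg2 (0.94) and H1f0 (0.94). Over the 6 arrays without the pair that stood apart, r was between 0.90 and 0.99 for these 5. Like Pdk4, all 5 were higher in VP16LXRa replicates 6 to 8 than in every VP16 tumor, so r holds this split of the groups. Pdk4 also had its lowest values on the pair that stood apart. They were picked as the highest among all tested genes outside these lists, so that high values are a product of the choice. For Acadm the nearest were Proc, 2010001J22Rik, Ces3, 9030205A07Rik and Nsg2, and because the arrays fall apart for Acadm no pooled value is given for these, while over the other 6 arrays r was between 0.93 and 0.98.

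Angptl4 and Adfp were grouped with Pdk4 as PPAR targets of fuel choice and lipid storage. Angptl4, a secreted inhibitor of lipoprotein lipase that also responds to hypoxia, stood at 8.09, 5.78, 6.03 and 5.26 in VP16 and at 8.83, 6.64, 5.21 and 6.40 in VP16LXRa tumors. It was highest on the arrays on which Pdk4 was lowest, was detected in 3 of 4 tumors of each group, and had the widest range of the 30 genes, 3.62, with a group difference of 0.48 (SE 0.83). Adfp, the lipid droplet coat protein now named Plin2, had the narrowest, from 7.87 to 8.20, with 7.89, 8.20, 8.07 and 8.18 against 7.87, 8.02, 8.06 and 8.17 (difference -0.05, SE 0.15). Of a further list of PPAR targets 17 of 36 genes were tested, 11 with a higher and 6 with a lower mean in VP16LXRa tumors, and none had an unadjusted p under 0.05. Acsl3, an acyl-CoA synthetase, was at 0.52 (SE 0.31), Txnip, which restrains glucose uptake, at -0.58 (SE 0.41) and the lipoprotein lipase gene Lpl at 0.39 (SE 0.31). Without the 2 arrays that stood apart 10 means were higher and 7 lower, and Txnip was at -0.17 (SE 0.22). Acsl3, at 0.70 (SE 0.23), was then the 1 gene of the 17 with an unadjusted p under 0.05 (adjusted p = 0.9998), against 3.21% of all tested genes.

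Of 28 receptors and coregulators of PPAR signalling 17 were tested, 8 with a higher and 9 with a lower mean and none with an unadjusted p under 0.05. Ppara and Ppard were detected on no array. Pparg, the receptor that drives lipid storage genes and was detected on all 8 arrays, stood at 8.81, 9.77, 10.35 and 10.06 in VP16 and at 8.35, 10.22, 9.55 and 10.36 in VP16LXRa tumors (difference -0.13, SE 0.49) and so shared the low values of the 2 arrays, as did 10 of the 17. The coactivator Ppargc1b stood at 8.585 and 8.43 there and at 10.02 to 10.78 elsewhere. Both are named after their values were seen. The genes of this list with the smallest p were Ppargc1a, a coactivator of oxidative metabolism (0.44, SE 0.38), Ncor1, a corepressor (0.16, SE 0.15), and the deacetylase gene Sirt1 (-0.19, SE 0.20). When the arrays that stood apart were left out, 9 means were higher and 8 lower, none with an unadjusted p under 0.05, and Ppargc1a was at 0.69 (SE 0.38) and Ncor1 at 0.06 (SE 0.16).

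A further list of 23 genes joined mitochondrial β-oxidation and acyl-CoA dehydrogenation with other acyl-CoA metabolism. It holds Pcca, Pccb, Mcee, Hibadh, Mlycd and Nudt7, which do not encode β-oxidation enzymes. Of the 23 genes 15 were tested, 8 with a higher and 7 with a lower mean, none with an unadjusted p under 0.05. The smallest p belonged to Hsd17b10, a hydroxyacyl-CoA dehydrogenase (0.18, SE 0.16), Ivd, the isovaleryl-CoA dehydrogenase (0.16, SE 0.15), and Gcdh, the glutaryl-CoA dehydrogenase (0.16, SE 0.16). Without the 2 arrays that stood apart 14 of the 15 means were higher, as were 53.0% of all tested genes. The median difference was 0.08 beside 0.015 over all tested genes, and again none had an unadjusted p under 0.05. The 15 include Hadhsc (0.19, SE 0.34 on these arrays), an older symbol of Hadh, which is among the 30 genes. Of 24 further peroxisomal genes 12 were tested, 9 higher and 3 lower by their means, none with an unadjusted p under 0.05, led by Nudt19, a peroxisomal CoA hydrolase (-0.36, SE 0.29), and Abcd4, an ABC transporter (0.28, SE 0.24). On the same 6 arrays 6 were higher and 6 lower. Nudt19 (-0.38, SE 0.16) and Abcd4 (0.50, SE 0.18) had an unadjusted p under 0.05 there but an adjusted p of 0.9998. Such an unadjusted p was reached by 3.21% of all tested genes on these arrays. The 2 lowest values lay on the arrays that stood apart for 8 of the 15 genes of the former list and 6 of the 12 peroxisomal genes. Those 8 were Gcdh, Hibadh, Mlycd, Mcee, Pcca, Pccb, Cpt1b and Nudt7, so most are not β-oxidation genes. Of 7 further carnitine genes only Slc25a29, a mitochondrial carrier of basic amino acids first described as carnitine-related, was tested. It stood at 5.12, 5.84, 5.26 and 5.57 in VP16 and at 6.00, 5.75, 6.88 and 6.24 in VP16LXRa tumors, with detection in 2 VP16 tumors and in all 4 VP16LXRa tumors. Its difference was 0.77 (SE 0.27, unadjusted limma p = 0.0212, exact permutation p = 0.0571), with an adjusted p of 0.9999. Over all 8 arrays 1.66% of all tested genes had an unadjusted limma p under 0.05. Leaving out both arrays gave 0.73 (SE 0.31, unadjusted limma p = 0.0503, exact permutation p = 0.2).

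**Figure D4:**
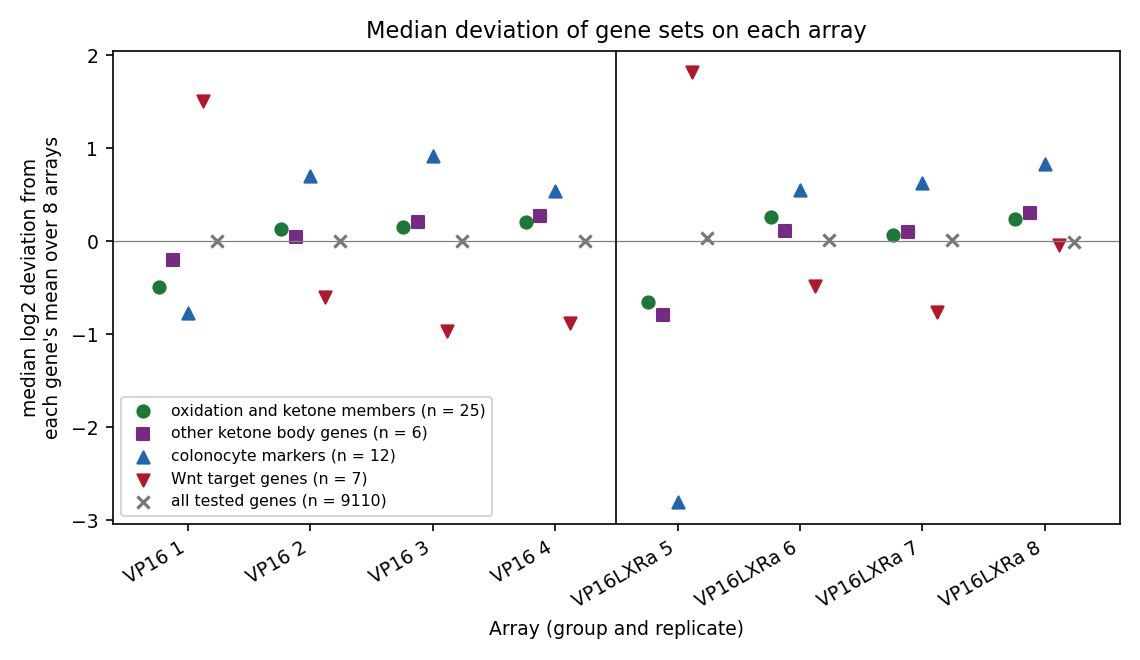
Median over genes of the log2 deviation from each gene's mean over the 8 arrays (vertical axis), on each array (horizontal axis), for 25 oxidation and ketone body genes (without Acot1, Acot2, Pdk4, Angptl4 and Adfp), 6 other ketone body genes, 12 colonocyte markers, 7 Wnt target genes and all 9110 tested genes. The 25 genes lie at -0.49 in VP16 1 and -0.65 in VP16LXRa 5 and between 0.07 and 0.26 on the other arrays, with the colonocyte markers low and the Wnt target genes high on the same 2 arrays.

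Set out per array, the 25 oxidation and ketone body genes without thioesterases, Pdk4, Angptl4 and Adfp had a median deviation of -0.49 on the array of VP16 replicate 1 and of -0.65 on that of VP16LXRa replicate 5. In VP16 replicates 2, 3 and 4 it was 0.14, 0.15 and 0.21, and in VP16LXRa replicates 6, 7 and 8 it was 0.26, 0.07 and 0.24. The same median over all tested genes lay between -0.005 and 0.03 on the 8 arrays. The colonocyte markers were at -0.77 and -2.80 on the arrays that stood apart and at 0.54 to 0.91 on the others. Both sets were thus low on the same 2 arrays. Because deviations were taken from the mean over all 8 arrays, low values on 2 arrays raise those of the other 6.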

How the data were processed

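Per the file headers, the deposited probe table gives 2 columns an array, the unnormalized intensity (linear) and the detection p-value. The authors also deposited their own processed intensities. GenomeStudio is the tool named, per the submitters' processing notes. Its version and steps are not given in the sources used here. The neqc function (limma 3.58.1, R 4.3.3) corrected background by normexp, with negative controls inferred from detection p-values, added an offset of 16, normalized by quantiles and took log2. The offset makes folds of dim probes smaller. The filter kept probes detected (p below 0.01) on 4 or more arrays, and the brightest of these stands for its gene. VP16LXRa minus VP16 was estimated by lmFit and eBayes on all kept probes, two-sided, with Benjamini-Hochberg adjustment and a threshold of 0.05. No slide or scan is named, so batches could not be examined, and the number of arrays limits the precision. Any pair of arrays had an identical deposited intensity at no more than 1 of the 25697 probes. The gene set and lists were chosen with earlier results of these data known, as was the leaving out of VP16 replicate 1 and VP16LXRa replicate 5, so lists are described by counts and medians and not tested. Values on every array are given for genes with an unadjusted p under 0.05 or groups that do not overlap, the 6 largest differences, the 6 widest ranges and the brightest gene of each role, and of further lists the up to 3 genes with the smallest p are named, apart from items not reported here. Likeness to Cpt1a was not computed, since no array detected it. The fit was tested on simulated data with known differences. Alternatives were other background corrections, normalizations, offsets, filters and variance models, array weights, the authors' values, the mean of a gene's probes and left-out arrays.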

Additional observations from a re-analysis of the deposited data

Results flagged for a closer look

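In a group of 4 tumors a value was picked out when its gap to the nearest other value exceeded Dixon's 95% critical share of the group's range, which chance gives in about 1 of 20 groups. Of 62 groups 4 were picked out, all on the 2 arrays that stood apart. Slc25a20 was lowest in VP16 replicate 1 (11.04, next value 11.65) and in VP16LXRa replicate 5 (10.09, next value 11.82). Acads was lowest in VP16LXRa replicate 5 (9.77, next value 10.90). Acot1 was highest in VP16LXRa replicate 5 (9.54, next value 7.82).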

How the results depend on the processing

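The count of genes with their 2 lowest values in VP16 replicate 1 and VP16LXRa replicate 5, an observation made after seeing the data, was 19 to 22 under the 14 alternatives run for it. The median log2 difference of the 30 genes lay between -0.17 and 0.19 under 19 alternatives, with the extremes reached without VP16 replicate 1 (-0.17) and without VP16LXRa replicate 5 (0.19). The count of genes with an unadjusted p under 0.05 was 1 (Pdk4), and became 2 both with uncorrected background and with 50 as the offset (Crat and Pdk4), 3 without a filter on dim probes (Cpt1a, Crat and Pdk4, of 33 genes, Cpt1a being undetected throughout) and 0 to 1 when 1 array was left out. With probes detected on all 8 arrays only, the single gene was Crat, since Pdk4 was not kept. The log2 difference of Pdk4 stayed positive under all 18 alternatives that kept it, from 0.50 without background correction to 1.72 without VP16LXRa replicate 5. Over all probes 1 passed the adjusted threshold. The count was 0 without background correction, 0 with the authors' processed values, 0 with an offset of 50, 0 without a filter, 0 with probes detected on all 8 arrays, 4 without both arrays that stood apart, and 0 to 2 without 1 array. The cause of these changes was not tested. No paired analysis was possible because the titles number the tumors from 1 to 8 with no number in common between genotypes.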
